A study of Homo sapiens with 9 samples.

Results

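A total of 159 protein-coding genes of HCT116 cells, a human colorectal cancer line, were higher in cells that re-expressed A20 than in both the parental and the A20-KO cells, while parental and A20-KO cells were close to each other. They were drawn from 19951 protein-coding genes and 58735 genes of all types in a table of FPKM values (fragment counts scaled to gene length and library depth, a level that can be compared between genes). Each of the 3 groups, A20-WT (parental), A20-KO (A20 disrupted by CRISPR) and A20-OE (A20-KO cells given back A20, which the study calls rescue or RE cells), held 3 libraries of polyadenylated RNA. No drug, cytokine or other treatment separated the groups per the labels. The study's methods describe A20 guides carried by a lentiviral vector and puromycin selection of infected cells. None of the 3 groups is labelled as cells with an empty vector. Effects of A20 therefore cannot be told apart from those of the vector, the selection or the restoring construct. Which of the listed human A20 guides made these cells, which construct restored A20 and whether each line was a single clone are not given in the sources used here, and neither is whether the libraries came from separate cultures, so that the spread between libraries may be technical.

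The genes were selected on these values. A gene was taken if its largest group mean was at least 1 FPKM, if the A20-KO over A20-WT ratio lay between 0.8 and its inverse, if the A20-OE over A20-KO ratio was at least 1.6, and if every A20-OE library was above every other library. A pseudocount of 0.1 FPKM was added to each mean before the ratios were taken. The level condition left 11337 genes, the band 5508, the ratio 168 and the last condition 159. Of the 11337 genes at the level condition, 11.7% had every A20-OE value above all 6 others. All comparisons of the 3 groups were used in this choice, so the values of the members below are a description and carry no test.

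A20, encoded by TNFAIP3, is a ubiquitin-editing enzyme with a deubiquitinase domain of the OTU type and a series of zinc fingers. It is induced by NF-kB and restrains NF-kB signalling below TNF and Toll-like receptors. In colon epithelium it is known for protecting cells from TNF-driven death. TNFAIP3 itself was not a member, because its A20-KO level was above the band. It stood at 0.869, 0.8 and 0.736 FPKM in A20-WT, 1.93, 2.16 and 1.04 FPKM in those with the A20-KO label, and at 58.7, 66.5 and 56.5 in A20-OE. The mRNA thus does not bear out the A20-KO label, since no A20-KO library was below an A20-WT library. However, mRNA does not show whether protein was made. The study reports the A20 expression level of its knockout and rescue cells in a figure, which was not examined here. Directions below that involve A20-KO rest on the A20-KO label.

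Depth ran from 23406222 to 24963691 reads assigned to genes per library. Reads from the mitochondrial genome made up 8.785% ± 1.3 (SD, n = 3) of A20-WT, 10.39% ± 1.36 of A20-KO and 12.72% ± 1.07 of A20-OE libraries. Of 10 colon epithelial markers 7 were at 1 FPKM or more in every library, with VIL1, LGALS4 and CEACAM5 near 0, while all 8 leukocyte and all 4 endothelial markers stayed under 1 FPKM. Of 8 fibroblast markers 7 were under 1 FPKM in every library. The exception was COL1A1, with means of 5.32, 13.3 and 11.7 FPKM in A20-WT, A20-KO and A20-OE. COL1A1 made up nearly all of the summed level of the 8 markers. That sum was 4.61 to 5.86 in A20-WT, 12.6 to 15.1 in A20-KO and 11.1 to 12.3 FPKM in A20-OE. In bulk RNA, fewer cells of a type and less RNA per cell cannot be told apart.

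The ratio of A20-OE over A20-KO ran from 1.6 to 6.2 with a median of 1.78, and 85 of the 159 members lay under 1.8. Only 5 members reached 3-fold, and 46 reached 2-fold. The A20-KO over A20-WT ratio had a median of 0.99, with 76 members higher and 83 lower in A20-KO. The lowest A20-OE library exceeded the highest other library by a median factor of 1.37. Levels were modest: 53 members averaged under 5 FPKM in A20-OE and 10 averaged at least 50. Summed without the mitochondrially encoded genes, the members made up 1904 to 2031 FPKM in A20-WT, 1816 to 2021 in A20-KO and 3622 to 3697 in A20-OE.

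In a limma fit of log2 values over 21636 genes (called at a Benjamini-Hochberg adjusted p under 0.05 and a log2 difference above 1), 45 members were called higher in A20-OE than in A20-KO, where 1.56% of all genes tested were. Against A20-WT 60 members were called higher, beside 7.68% of all genes. None of the members was called between A20-KO and A20-WT, where 6.99% of all genes were. By limma at an unadjusted p under 0.05 there were 6 members, beside 7686 of all 21636 genes, and limma-voom on recovered reads called 0 members. These shares follow from the selection, and nothing is read from them.

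GAST, which encodes the peptide hormone gastrin, had the largest ratio. The gene lies on chromosome 17 (GRCh38, 41712326 to 41715969, plus strand). It was at 2.14, 1.02 and 0.851 FPKM in A20-WT, at 1.4, 0.692 and 1.64 in A20-KO and at 7.46, 6.69 and 10.6 in A20-OE. A20-WT and A20-KO overlapped, and A20-OE stood above both, as the selection demanded. The A20-KO values rested on 8 to 18 reads per library and the A20-OE values on 78 to 114. The gastrin receptor gene CCKBR was under the level needed for testing.

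ARRDC4 came next and was the more precisely measured gene. It encodes an alpha-arrestin that limits glucose uptake and is known to be induced by glucose. On chromosome 15 (GRCh38, 97960698 to 97973838, plus strand), it gave 3.14, 2.56 and 2.16 FPKM in A20-WT, 3.57, 3.23 and 2.84 in A20-KO and 18.3, 17.9 and 17.2 in A20-OE. Its 3 A20-OE values differed by a CV of 3.31%, and the lowest of them was 4.81 times the highest other value. The ratio over A20-KO was 5.4. Of its relatives, ARRDC3 reached 10.9 FPKM in A20-OE against 6.18 in A20-KO without being called, while ARRDC2 was at 7.97 against 9.25. In a list of arrestins written after the members were known, 4 were tested and only 2 had a positive log2 difference. The 1 called was ARRDC4, already selected for being high, beside 1.56% of all genes tested.

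HERC3 and TBC1D3E also had ratios of 3 or more. HERC3, a member of the HECT family of ubiquitin ligases, went from 1.48 ± 0.137 FPKM in A20-WT and 1.87 ± 0.339 in A20-KO to 6.09 ± 0.827 in A20-OE (SD, n = 3 libraries here and below). TBC1D3E belongs to a family of near-identical copies on chromosome 17, so its reads may be shared among paralogs, and its A20-OE values of 1.65, 0.796 and 0.797 FPKM had a CV of 45.5%.

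**Figure D1:**
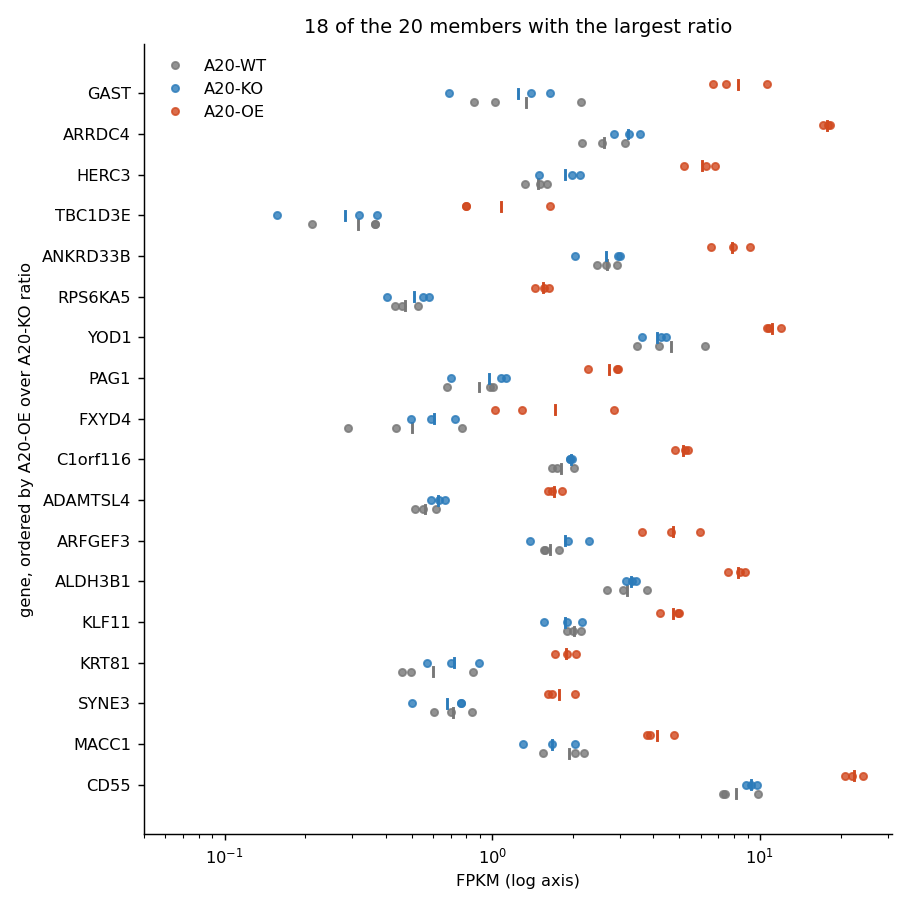
FPKM on a log axis for 18 of the 20 members with the largest ratio of A20-OE over A20-KO, 1 point per library and a bar at each group mean. The 3 A20-OE points lie to the right of all others for every gene, as the selection demanded, and the spread of TBC1D3E and FXYD4 is wide.

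Surface receptors and ligands formed a first group of 13 members. CD55, which keeps complement from attacking the cell, was at 9.81, 7.4 and 7.27 FPKM in A20-WT, 9.75, 9.23 and 8.84 in A20-KO and 22.1, 20.7 and 24.3 in A20-OE. CD47, which binds SIRPa on macrophages and restrains phagocytosis, was chosen here for its role after its values were seen and reached 12.4, 12.8 and 12.3 FPKM in A20-OE against 6.73 to 8.25 in A20-KO and 5.19 to 7.49 in A20-WT. For both genes the A20-OE libraries stood above all others, as the selection demanded. Of these 2 genes and the other complement regulators CD46 (17.1 against 14.8 FPKM) and CD59 (10.9 against 7.32), CD55 was the 1 gene of 4 called between A20-OE and A20-KO. Of all genes tested, 1.56% were called higher, and CD55 was already selected for being high. CD47 left the selection on scaling to total reads (ratio 1.56) and under the correction for GC content (1.47). The highest-level member of this group, the retinoid-induced orphan receptor GPRC5A, gave 129, 135 and 132 FPKM in A20-OE against 49.3 to 60.9 elsewhere.

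Of the EGF system, members were the receptor EGFR, its ligand TGFA and the shedding protease ADAM17, all chosen for their role. TGFA averaged 15.3 ± 0.796, 16.2 ± 2.03 and 26.1 ± 0.504 FPKM in A20-WT, A20-KO and A20-OE. EGFR averaged 13.6 ± 0.889, 11.7 ± 3.04 and 19 ± 2.81 FPKM. ADAM17, which releases TGF-alpha from the membrane, averaged 4.12 ± 0.11, 3.82 ± 0.859 and 6.91 ± 0.61 FPKM. The more abundant ligands AREG (204 against 211 FPKM in A20-KO) and EREG (56.1 against 67.3) were not members. None of the ligands, receptors or proteases examined, members included, was called between A20-OE and A20-KO by limma or limma-voom. At an unadjusted p under 0.05 by limma, 1 ligand, 1 receptor and 2 proteases were higher and none was lower. Of all 21636 genes tested, 5521 passed that threshold in either direction. These lists were written around members already selected for being high. EGFR fell just below the ratio limit when values were scaled to total reads, with a ratio of 1.56, and TGFA with 1.55.

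Matrix, adhesion and junction genes made up 12 members. ITGA6, an integrin chain that binds laminins of the basement membrane, averaged 20.3, 17.8 and 34.6 FPKM in the 3 groups. Its partner ITGB4 went from 60.9 in A20-WT to 222 in A20-KO and 300 in A20-OE and so lay outside the band. Of 5 laminin-binding integrin chains tested, 3 had a positive log2 difference between A20-OE and A20-KO and none was called. At an unadjusted p under 0.05 by limma, 3 were higher and 1 lower, beside 5521 of all 21636 genes in either direction. ADAMTSL4, a microfibril-associated matrix protein, averaged 0.561, 0.629 and 1.71 FPKM.

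Glucose use and the response to low oxygen held 10 members. LDHA, which converts pyruvate to lactate, was at 240, 195 and 208 FPKM in A20-WT, 192, 185 and 201 in A20-KO and 415, 392 and 446 in A20-OE. PGK1, a glycolytic kinase, was at 106 to 124, 123 to 125 and 225 to 244 FPKM. SLC2A1, the glucose transporter GLUT1, was at 120 to 148, 127 to 145 and 204 to 239 FPKM. All 3 genes were separated in every library, as the selection demanded. The SLC2A1 ratio of 1.61 became 1.55 on scaling to total reads.

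Of 15 hypoxia-induced genes, a list fixed with earlier results of these data known, all 15 were tested and 2 were members (BNIP3 and SLC2A1). In A20-OE against A20-KO 4 were called higher and none lower, beside 1.56% and 0.832% of all genes tested. The median log2 difference of the list was 0.76 beside 0.01 for all genes tested, and 12 of the 15 were positive. At an unadjusted p under 0.05 by limma, 10 were higher and 1 lower, beside 5521 of all 21636 genes in either direction. These values include the 2 members, already selected for being high, of which BNIP3 was called. BNIP3, a mitochondrial protein of mitophagy, averaged 11.5 ± 0.403, 14.2 ± 0.504 and 29.8 ± 2.21 FPKM. NDRG1 (63.6 to 286 FPKM, log2 difference 2.17, SE 0.1, adjusted p 2.1e-05 by limma), PDK1, a brake on pyruvate oxidation (1.02 to 2.44 FPKM, 1.18, SE 0.18, adjusted p 0.0067), and P4HA1, a collagen prolyl hydroxylase subunit (58.4 to 120 FPKM, 1.04, SE 0.09, adjusted p 0.00072), were called as well but lay outside the selection.

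Glycolysis was also examined as a list of 21 enzymes and transporters written after the members were known. Of these, 4 were called higher and none lower, beside 1.56% and 0.832% of all genes tested, and the median log2 difference was 0.5 beside 0.01. The list was written around 3 members already selected for being high (LDHA, PGK1 and SLC2A1), of which LDHA was called. Among the called genes outside the selection, ALDOA went from 2.57 to 7.87, GPI from 86.9 to 206 and SLC2A3 from 0.784 to 2 FPKM. Overlap with other genes, which can limit such values, is not given here for ALDOA, GPI or SLC2A3. TPI1 (274 to 229 FPKM), PFKM (25.5 to 23.1), LDHB (22.8 to 16.4) and SLC16A3 (62 to 51.5) had lower means in A20-OE and were not called.

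Metal, redox and one-carbon metabolism held 10 members. MAT2A, which makes S-adenosylmethionine, was at 150, 154 and 150 FPKM in A20-OE against 67.4 to 77.3 in A20-KO. GCLC, the catalytic subunit that starts glutathione synthesis, averaged 9.71 ± 0.797, 10.1 ± 1.29 and 20.8 ± 0.53 FPKM, whereas GCLM, the partner subunit, was at 7.12 and 6.8 FPKM in A20-KO and A20-OE. TXNRD1, thioredoxin reductase, averaged 63.5, 54.6 and 91.6 FPKM. HMOX1 was called higher (19.9 to 56 FPKM) but exceeded the band already in A20-KO. The zinc exporter SLC30A1 averaged 4.95 ± 0.66 FPKM in A20-KO and 10.2 ± 1.15 in A20-OE. The metallothionein MT1X was at 19.4 to 26.7 FPKM in A20-OE, but its A20-WT values of 16.9, 9.03 and 9.14 varied widely, and the close relatives MT1E and MT2A were not called. ALDH3B1, an aldehyde dehydrogenase, averaged 3.18, 3.31 and 8.25 FPKM.

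**Figure D2:**
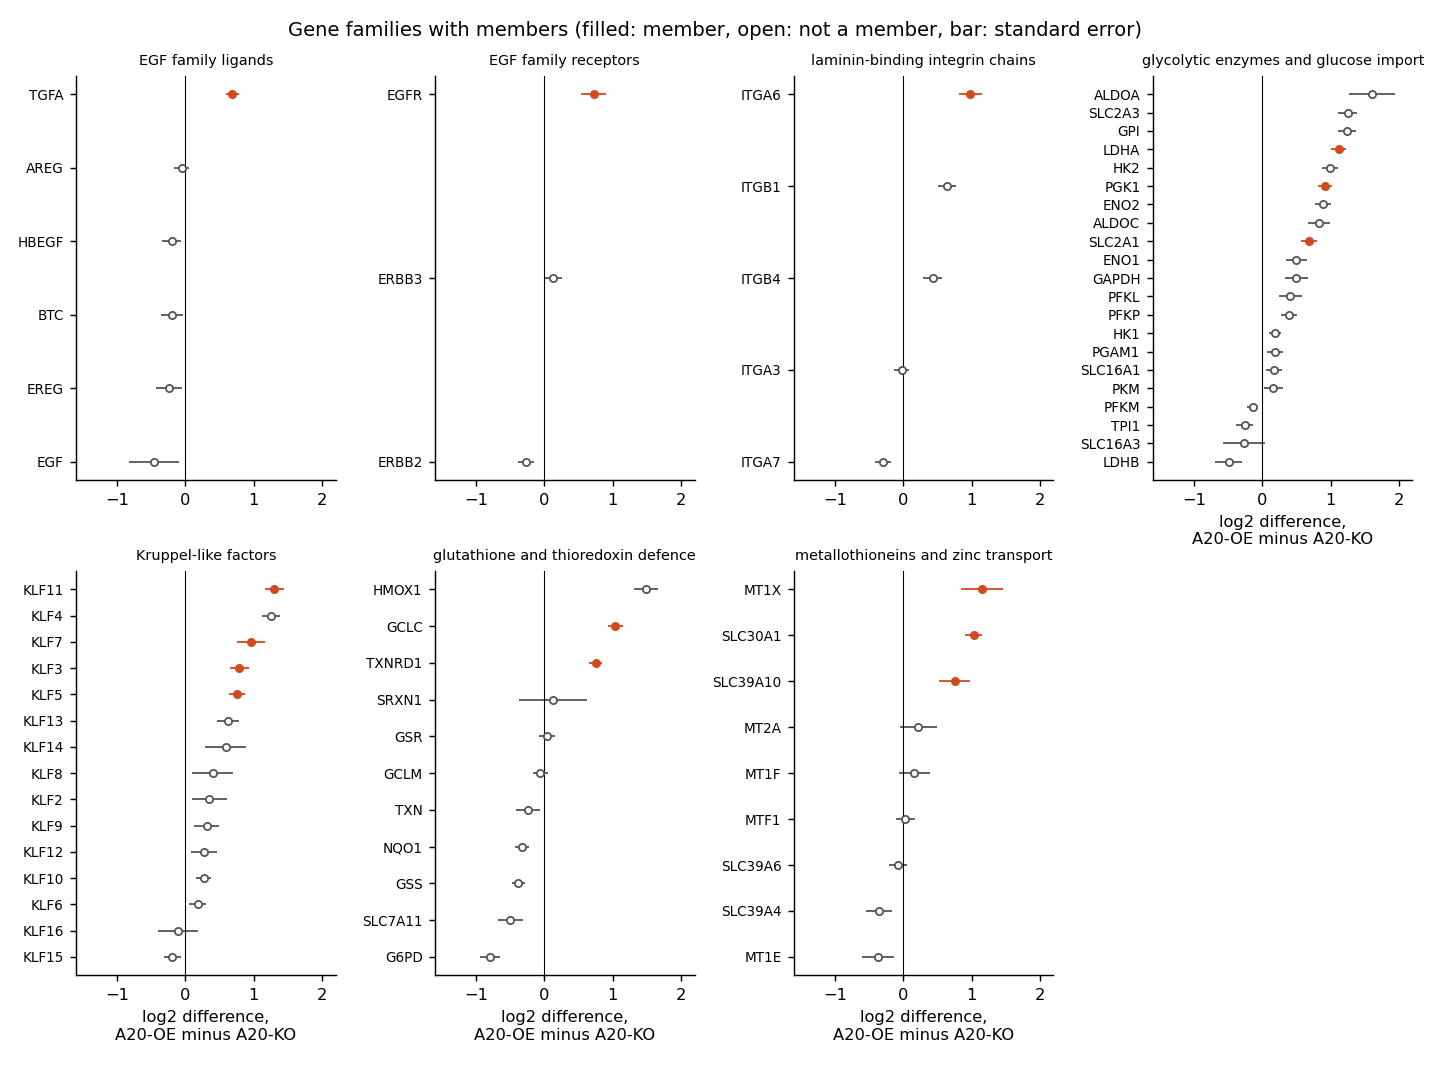
Log2 difference A20-OE minus A20-KO from the limma fit, with its standard error, for each tested gene of 7 families that hold members. Filled red points are members and open points are relatives outside the selection. ALDOA, HMOX1 and KLF4 are relatives with a large difference, and EREG, GCLM and MT1E are relatives near 0 or below.

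Transcription factors and cofactors made up 17 members, and by an annotated family 16 members (10.1%) were transcription factors, beside 7.74% of all genes at the level condition. Of these, 4 were Kruppel-like factors, which bind GC-rich promoter sites. KLF11 was at 2.15, 2 and 1.91 FPKM in A20-WT, 2.16, 1.9 and 1.56 in A20-KO and 4.93, 5 and 4.23 in A20-OE. KLF3 averaged 8.55 and 14.8, KLF5 27.6 and 46.6, and KLF7 1.53 and 3.06 FPKM in A20-KO and A20-OE, and these 3 were not called. KLF4, called higher with 27.2 and 64.5 FPKM, lay outside the band, and KLF6 was at 8.57 and 9.68 FPKM. MACC1, a regulator of MET transcription named for its link to colon cancer, was at 3.87, 4.76 and 3.79 FPKM in A20-OE against 1.3 to 2.2 elsewhere. The members named ZNF, which were ZNF185, ZNF217 and ZNF292, reached 9.31, 9.89 and 5.67 FPKM in A20-OE. ZNF185 was matched by its name only and had no annotated transcription factor family.

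YOD1, an OTU-type deubiquitinase like A20, was the member of the ubiquitin system with the second-largest ratio after HERC3. It was at 6.25, 4.2 and 3.47 FPKM in A20-WT, 4.26, 4.47 and 3.63 in A20-KO and 10.8, 12 and 10.6 in A20-OE. ITCH, a HECT-type ligase chosen here because it acts with A20 on TNF receptor signalling, averaged 12.8 ± 2.1, 10.9 ± 2.43 and 23.1 ± 2.84 FPKM. Of 9 members in this group, none kept its place in the selection whichever single library was left out.

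Among 13 kinases and adaptors, RPS6KA5, the nuclear kinase MSK1, was at 0.528, 0.462 and 0.432 FPKM in A20-WT, 0.549, 0.58 and 0.403 in A20-KO and 1.56, 1.63 and 1.45 in A20-OE. PAG1, a membrane adaptor that recruits CSK, averaged 0.971 ± 0.236 FPKM in A20-KO and 2.72 ± 0.393 in A20-OE. Of the Hippo kinase core, written as a list after the members were known, LATS2 (4.06 and 7.43 FPKM in A20-KO and A20-OE) and MOB1B (6.41 and 10.5 FPKM) were members. None of its 7 genes was called by limma or limma-voom. By limma at an unadjusted p under 0.05, 2 were higher and 0 lower, beside 5521 of all 21636 genes in either direction. MOB1B left the selection on scaling to total reads, with a ratio of 1.57.

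Of the cytoskeletal members EZR, which links actin to the membrane, was the most abundant nuclear-encoded member. Its values were 372, 402 and 442 FPKM in A20-WT, 438, 419 and 414 in A20-KO and 717, 699 and 784 in A20-OE. SUN1 and SYNE3, proteins of the inner and outer nuclear membrane that together bridge the envelope, averaged 19.1 and 39.8 FPKM and 0.676 and 1.77 FPKM in A20-KO and A20-OE. Their relatives SUN2, SYNE1, SYNE2 and SYNE4 had lower means in A20-OE than in A20-KO and were not called. KRT81, a hair keratin with close paralogs, averaged 0.721 and 1.89 FPKM.

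Further genes among the 20 largest ratios were ANKRD33B (2.66 and 7.88 FPKM in A20-KO and A20-OE), FXYD4, C1orf116 and ARFGEF3. FXYD4, a regulator of the sodium pump, rested on as few as 6 reads and had A20-OE values of 1.29, 1.02 and 2.84 FPKM. C1orf116 was even across libraries, at 1.96, 1.99 and 1.96 FPKM in A20-KO and 4.83, 5.24 and 5.38 in A20-OE. ARFGEF3 was at 4.64, 5.98 and 3.62 FPKM in A20-OE.

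Of the mitochondrially encoded proteins, MT-CO1, a subunit of cytochrome oxidase, averaged 9902 ± 1511, 11099 ± 1142 and 18448 ± 2832 FPKM, and MT-ND6, a subunit of complex I, 3673 ± 1198, 3996 ± 688 and 6424 ± 902. Of the 13 genes of this kind, all tested, none was called in either direction by limma or limma-voom, and the median log2 difference was 0.29. By limma at an unadjusted p under 0.05, 3 were higher, beside 5521 of all 21636 genes in either direction. The mitochondrial share of reads moved with the groups as given above, and its part in these 2 members was not tested.

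**Figure D3:**
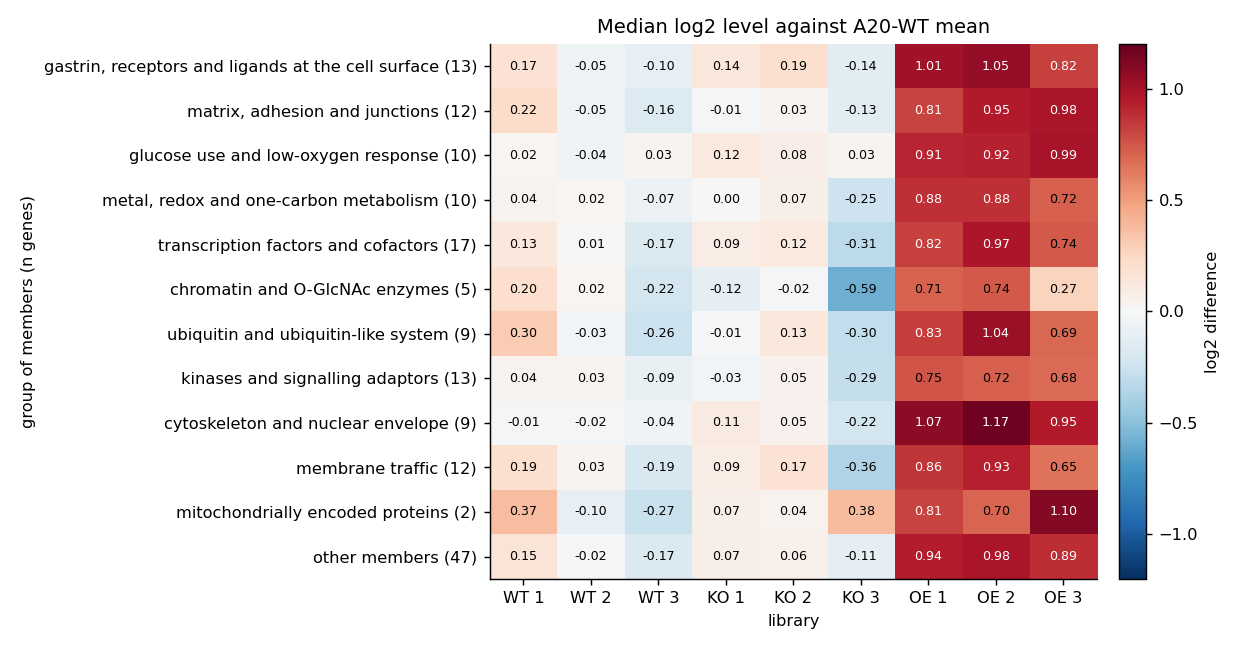
Median log2 level of each group of members in each of the 9 libraries, relative to the A20-WT mean of each gene (number of genes in parentheses). All A20-OE columns are above 0. KO 3 is the lowest A20-KO column for most groups, down to -0.59 for chromatin and O-GlcNAc enzymes.

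The members did not all move evenly in the A20-OE libraries. The second A20-OE library held the highest value for 95 members (59.7%, beside 33.0% of all genes at the level condition), and the third held the lowest for 96. The third A20-KO library lay lowest, with a median of -0.19 over the members relative to A20-WT, against 0.07 and 0.09 in the other two. Without it, 125 genes met the selection and 88 of them were among the 159.

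The members were poor in GC. The longest transcript of a member had a median GC content of 43.4%, beside 49.3% for all genes at the level condition, and the median gene length was 6297 against 5033 bases. Over 5 equal bins from the lowest to the highest GC content the number of members fell from 55 to 43, 34, 22 and 4. Over all genes the median log2 difference A20-OE minus A20-KO ran from 0.1 in the lowest bin to -0.25 in the highest, and A20-KO minus A20-WT from -0.29 to 0.34. When each library was centred within bins of GC content, 84 of the 159 genes still met the selection, and of the 75 that did not, 48 had a ratio under 1.6 and 35 an A20-KO over A20-WT ratio outside the band. GAST, ARRDC4, HERC3, PAG1, CD55 and BNIP3 were among those 75, with corrected ratios of 6.81, 5.03, 2.93, 2.48, 2.25 and 2.1, whereas KLF11, LDHA, PGK1, SLC2A1, MAT2A, EZR and YOD1 kept their place. Of the 159 genes, 75 met the selection under all of 4 other scalings. All 159 kept a ratio above 1 under each of them, which their selection at a ratio of at least 1.6 made likely.

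By position, 13 pairs of members lay within 1 Mb of each other. On chromosome 1, RASSF5, C1orf116, YOD1 and CD55 followed one another, with C1orf116 and YOD1 only 11.1 kb apart. On chromosome 2, MBOAT2, ADAM17 and KLF11 were spaced by 485 and 486 kb, and on chromosome 12 DDX47 lay 60.8 kb from GPRC5A. The nearest neighbours outside the selection had a median log2 ratio of 0.1, beside -0.05 for all genes at the level condition outside the selection and 0.84 for the members.

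Promoter sequences (RefSeq, GRCh38.p14, 250 bases before to 50 after the start) were matched for 130 of the 159 members. The E-box CACGTG, a palindrome bound by basic helix-loop-helix factors such as MYC and the glucose-sensing MondoA, was found in 16 member promoters (12.3%), beside 10.3% of the promoters of genes at the level condition and 7.43% of all promoters. The shorter core ACGTG, which lies inside the E-box and is part of the site of hypoxia-inducible factors, was added after the members were known and was found in 32.3%, 27.1% and 21.6%. The stretches below show these letters in 6 members of the glucose, hypoxia, adhesion and transcription factor groups, upstream of the RefSeq start, read 5' to 3' on the gene's strand, with CACGTG in capitals except for PGK1, where ACGTG on either strand is in capitals.
ARRDC4 (chr15:97960481-97960510, plus strand): aaacggcctgtgCACGTGcacgccggagcc
LDHA (chr11:18394366-18394395, plus strand): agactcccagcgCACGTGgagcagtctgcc
LDHA (chr11:18394465-18394494, plus strand): agcccgactcaCACGTGggttcccgcacgt
BNIP3 (chr10:131982040-131982069, minus strand): gcgcacgcgccgCACGTGccacacgcaccc
KLF11 (chr2:10043635-10043664, plus strand): ccgcccgcagccCACGTGcggccgctgctg
ITGA6 (chr2:172427223-172427252, plus strand): cgtatgcatctgCACGTGggcccacatctg
PGK1 (chrX:78104040-78104069, plus strand): tgccggACGTGacaaacggaagccgCACGT
LDHA held the E-box at both places, and its first stretch spans the GENCODE gene start at 18394388. The second LDHA stretch and those of KLF11 and PGK1 lie inside the GENCODE genes. SLC2A1, of the glucose group, held neither CACGTG nor ACGTG. Other members with CACGTG, such as LATS2 and AFF4, are not shown. A match is only a match of letters and does not show that a factor binds.

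The other motifs, searched on both strands, were found in members, in genes at the level condition and in all promoters at these shares. The NF-kB consensus was in 13.8%, 13.4% and 10.8%. The AP-1 motif TGANTCA was in 6.15%, 4.27% and 7.76%, and the cAMP response element TGACGTCA in 4.62%, 3.38% and 1.98%. TATAAA was in 9.23%, 5.04% and 12.0%, CCAAT in 27.7%, 36.7% and 35.7%, and GGGCGG in 78.5%, 72.9% and 44.6%. The STAT motif TTCNNNGAA was in 3.85%, 5.85% and 7.88%, and the metal response core TGCNCNC, added after the members were known, in 64.6%, 64.3% and 55.2%.

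The other pathway lists are set beside all genes tested, of which 1.56% were called higher and 0.832% lower in A20-OE than in A20-KO. By limma at an unadjusted p under 0.05, 5521 of the 21636 genes tested differed in either direction. The unadjusted counts below are to be read beside that number. Of 17 NF-kB target genes tested none was a member, none was called higher and 2 were called lower, the chemokines CXCL8 (1.46 to 0.527 FPKM, log2 difference -1.32, SE 0.18, adjusted p 0.0051 by limma) and CXCL1 (1.3 to 0.508 FPKM, -1.18, SE 0.29, adjusted p 0.039). The median log2 difference of this list was -0.17, and at an unadjusted p under 0.05 none was higher and 6 were lower. Of 20 interferon-stimulated genes 1 was called higher (OASL, 2.61 to 5.97 FPKM) and 1 lower (IFI6, 32.6 to 14.5 FPKM), with a median of -0.14.

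Of 18 ATF4 and stress response genes 1 was called lower (PHGDH, 20.8 to 9.4 FPKM, median of the list -0.25), and of 16 p53 target genes 1 was (GDF15, 348 to 138 FPKM, median 0.21). Of 17 cholesterol genes 1 was called lower (median -0.6), and of 19 immediate early and ERK feedback genes 2 were (DUSP6, 65.3 to 23.3 FPKM, and EGR2, 1.6 to 0.694 FPKM, median -0.33). None of these 4 lists held a member or, by limma or limma-voom, a gene called higher. At an unadjusted p under 0.05, 1, 5, 0 and 2 of their genes were higher and 8, 1, 13 and 9 lower.

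Of 10 TGF-beta, YAP and mesenchymal genes tested none was called by limma or limma-voom (median 0.51, 6 higher and 0 lower at an unadjusted p under 0.05). Of 4 intestinal differentiation genes 1 was called higher (MYO7B, 0.0727 to 0.455 FPKM, median -0.02), and of 9 Wnt target genes 1 was called lower (SP5, 2.44 to 0.9 FPKM, median -0.18). None of the 40 replication-type histone genes (median -0.13) or the 90 nuclear-encoded respiratory chain genes (median -0.32) was called by limma or was a member. At an unadjusted p under 0.05, 3 and 3 were higher and 4 and 28 lower, and limma-voom called 1 histone gene higher and no respiratory gene. Of 375 genes named ZNF, 3 were members and 1 was called higher (ZNF587B, 1.24 to 2.66 FPKM, median 0.12). Of 92 genes matched as cytosolic ribosomal proteins 1 was called and a member, but it was RPS6KA5, a kinase matched by its prefix. Without such kinases none of 83 was called by limma, with a median of 0.11, 6 were higher and 1 lower at an unadjusted p under 0.05, and limma-voom called 1.

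The members nearest the limit were ATP11B (ratio 1.601), RALGPS2 (1.606) and AFF4 (1.607). UPRT, TMC7 and COG6 met every other condition and fell just outside, each with a ratio of 1.598. For 20 members at least 1 library held fewer than 100 reads. Gene overlap also limits some values. Among others, SLCO1B3 shares 54.5% of its exon bases with other genes on its strand. For DDX47, with as few as 54 reads in a library, the share was 36.5%. For 5 members, TRAPPC6B and C8orf59 among them, over 25% of exon bases lie opposite a gene on the other strand. Counting by strand is not given in the sources used here.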

How the data were processed

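Per the labels and the study's methods, the authors sequenced poly(A)-enriched RNA as 150 bp paired-end reads, aligned them with HISAT2 2.0.5, counted reads per gene with featureCounts 1.5.0-p3 and deposited FPKM values for 9 libraries. The build is not named. All 58735 gene IDs and their coordinates matched GENCODE 29 (GRCh38). FPKM times gene length, divided by each library's value of 1 read, was whole to within 0.02 reads (2e-05 of the count for large counts) in 100% of values, and the recovered reads served for depth and for one alternative.

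Differences were fitted with limma 3.58.1 (R 4.3.3, trend) on log2(FPKM + 0.1) for 21636 genes with a mean of at least 0.1 FPKM, the 3 groups in 1 fit, so the log2 differences of low genes are understated. Genes were called at an adjusted p under 0.05 and a log2 difference above 1. The fit was tested on simulated data. Named genes were the 20 members of largest ratio, the 8 of highest level, the 3 nearest each side of the limit, TNFAIP3 and, per list, up to 4 called genes and every member. Others were chosen for their role after their values were seen. Some genes that this rule names are not reported here. The members and lists were chosen with earlier results of these data known. Alternatives were other pseudocounts, filters, scalings and limits, a replicate block, limma-voom on reads, and leaving out each library. The GC correction centred log2 values within 50 bins of GC content.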

Additional observations from a re-analysis of the deposited data

How the results depend on the processing

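The number of genes that met the selection was 243 at a ratio limit of 1.5, 46 at a limit of 2 and 77 with a band from 0.9 to its inverse. With one library left out it ran from 125 (without the third A20-KO library) to 211 (without the third A20-OE library), and 61 of the 159 genes stayed whichever library was left out. Scaled to total reads 119 genes met it, of which 118 were among the 159, and scaled to reads outside the mitochondrial genome 146, of which 138 were. After the correction for GC content 151 genes met it, of which 84 were among the 159. These last 3 settings were chosen after seeing the data.

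With a pseudocount of 1, limma called 155 genes between A20-OE and A20-KO instead of 517, 472 instead of 1512 between A20-KO and A20-WT and 976 instead of 2571 between A20-OE and A20-WT, and 22 and 25 members instead of 45 and 60 in A20-OE against A20-KO and A20-WT, since the larger pseudocount shrinks the differences of low genes. Among genes with a mean of at least 1 FPKM, of which fewer were tested, the 3 counts of genes were 289, 931 and 1555. With one library left out, genes called between A20-OE and A20-KO ran from 256 to 621, and were 256 without the first A20-OE library, 268 without the second, 310 without the first A20-KO library and 324 without the third. They ran from 1184 to 1777 between A20-KO and A20-WT and from 2258 to 2574 between A20-OE and A20-WT, and the members called from 34 to 54 and from 46 to 70.

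The replicate numbers are shared between groups, but libraries with the same number did not deviate together throughout (correlations from -0.123 to 0.325), and the first A20-WT library correlated best with the second A20-KO library, at 0.207. With the number as a replicate block 542 genes were called between A20-OE and A20-KO, with 45 members among them. For the 35 named members 20 of 591 alternative values moved by more than the spread between libraries. None of the 591 turned negative, which the selection of these genes for being high made likely.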

Other observations

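Besides the protein-coding genes, 77 genes of other types met the same conditions, among them 19 antisense transcripts and 18 long intergenic RNAs. NORAD, an abundant long RNA that binds Pumilio proteins, averaged 52 ± 4.75, 47.4 ± 8.75 and 87.2 ± 7.68 FPKM (SD, n = 3) in A20-WT, A20-KO and A20-OE, and the A20-OE libraries held 9721 to 12529 reads. MIR22HG, the host transcript of miR-22, averaged 1.33, 1.14 and 2.85 FPKM, and PURPL, a long RNA of the p53 pathway, 1.19 and 3.37 FPKM in A20-KO and A20-OE.

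H19, an imprinted long RNA, had one of the largest ratios at 7.96, but its A20-OE libraries held 53, 197 and 66 reads and were far apart, against 2 to 12 reads elsewhere. ABALON averaged 7.35 FPKM in A20-KO and 16.3 in A20-OE, and 74.8% of its exon bases lie opposite BCL2L1, so its reads cannot be told from that gene's without strand. The mitochondrial tRNAs MT-TN and MT-TC, genes of 73 and 66 bases, averaged 1751 and 4193 FPKM and 1523 and 3487 FPKM in A20-KO and A20-OE.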
